A study of Mus musculus with 18 samples.

Results

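The 10 genes described here make, break down and control the polyamines putrescine, spermidine and spermine. They were chosen by symbol: Odc1, Amd1, Srm and Sms for synthesis, Sat1, Smox and Paox for breakdown, and Azin1, Oaz1 and Oaz2 for control of ornithine decarboxylase. They are 10 of the 55469 gene identifiers in the tables, and the rule names them by symbol, with no threshold on a measured value. All 10 passed the filter on low values in every comparison. RNA of male mice was sequenced from 2 prostate lobes, the ventral and the lateral, in 18 libraries, with 3 libraries in each of 6 groups. Every mouse carried 1 copy of TRAMP, in which the probasin promoter drives the SV40 T antigens in prostate epithelium, on the strain labelled C56NL/6N. At 10 weeks and again at 30 weeks of age the groups were WT-TRAMP (wild-type Elac2), KO-TRAMP (exon 8 of both Elac2 alleles excised by Pb-Cre, which acts in prostate epithelium only) and A537T-TRAMP (the Ala537Thr variant of Elac2, homozygous in the whole body). Elac2 encodes the enzyme that trims the 3′ ends of tRNA precursors. WT-TRAMP, the control, was thus itself a tumour model, and mice without the transgene were not analysed here.

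Polyamines are small positively charged molecules that bind nucleic acids, and dividing cells need them. Ornithine decarboxylase (ODC, from Odc1) makes putrescine, S-adenosylmethionine decarboxylase (from Amd1) supplies the aminopropyl groups, and spermidine synthase (Srm) and spermine synthase (Sms) add them. In breakdown, spermidine/spermine acetyltransferase (Sat1) marks polyamines for export or for oxidation by Paox, while spermine oxidase (Smox) turns spermine back into spermidine and releases hydrogen peroxide. Antizymes (Oaz1, Oaz2) bind ODC and send it to the proteasome, and antizyme inhibitor 1 (Azin1) binds antizymes in its place. The prostate is known for secreting large amounts of spermine. Much of this pathway is set at translation and protein decay, which RNA levels do not report.

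Short sequences show that control. Antizyme is made in full only when the ribosome shifts its reading frame at a stop codon, a step that polyamines promote. In the lines below the capitals mark the codon before the shift and the stop codon that is read past. They were found in the annotated transcripts of GRCm38 (GENCODE vM21), and the Oaz1 and Oaz2 stretches of 30 bases differ at 2 bases.
Oaz1 frameshift site: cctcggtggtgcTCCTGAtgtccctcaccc
Oaz2 frameshift site: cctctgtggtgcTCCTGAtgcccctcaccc
Amd1 upstream reading frame: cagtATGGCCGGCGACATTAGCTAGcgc
The Amd1 line holds a small reading frame of 6 codons and its stop, in capitals, that lies before the coding sequence and is known to lower translation when polyamines are abundant.

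MYC proteins are textbook activators of Odc1, and they bind the E-box CACGTG. Of the 250 bases before each start in RefSeq (GRCm38.p6), 6.02% of 32851 windows held this E-box, and GGGCGG, the GC box, was found on either strand in 32.7%. Bases outside these windows, in introns too, were not searched, so a window without the E-box does not mean a gene without it. The windows of Smox, Oaz2 and Paox, and 1 of Sms, lay inside the gene as annotated in GENCODE vM21. Windows were available for 8 of the 10 genes, 10 windows in all, as Sms and Paox had more than 1. Of these genes 1, Sms, held the E-box, in 1 of its windows. A GC box was in a window of 7 genes. These are counts of genes, where the percentages count windows. Smox had 6 copies, Odc1 and Sms up to 4, and Oaz2 and Paox up to 3. Sat1 had 2, Amd1 had 1 and Oaz1 had 0. Of all windows 16.7% held 2 or more. The lines below show the E-box of Sms, on the minus strand at chrX:157492466-157492495, and a stretch of the Smox window outside annotated exons, on the plus strand at chr2:131491654-131491763, with the motifs in capitals.
Sms: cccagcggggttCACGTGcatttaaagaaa
Smox: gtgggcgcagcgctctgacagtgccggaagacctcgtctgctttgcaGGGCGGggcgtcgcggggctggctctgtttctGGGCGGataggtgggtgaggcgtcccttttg

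The libraries held 9380174 to 14830104 reads, and the 10 genes had between 105 reads (Smox) and 13742 reads (Amd1) in a library. Libraries are named by the numbers in the column headers, which cannot be tied to single mice. Elac2 itself was at 85.6% of WT-TRAMP in KO-TRAMP at 10 weeks (limma adjusted p = 0.808) and at 87.1% at 30 weeks, and at 94.3% and 103% in A537T-TRAMP. These whole-gene counts include the cells that Pb-Cre does not reach and the exons that it leaves, and so do not check the deletion of exon 8. All 10 luminal epithelial markers had at least 10 reads in every library, and their sum was 2030 to 3604 CPM (counts divided by the library total and scaled to a common total). In KO-TRAMP at 30 weeks 5 of these 10 had an unadjusted p under 0.05, none was called, and their median log2 fold change was -0.63. The sum of 8 seminal vesicle markers varied widely within most groups. At 30 weeks it was 1.06 to 43537 CPM in WT-TRAMP, 6.95 to 2656 CPM in KO-TRAMP and 3.13 to 54493 CPM in A537T-TRAMP. At 10 weeks it was 1.83 to 4.59 CPM, 9.06 to 16282 CPM and 487 to 90508 CPM in the same order. The part of this tissue in the values of the 10 genes was not tested. At 30 weeks some libraries were close to a mixture of the other libraries of their group. Library 18 (KO-TRAMP) matched 40.0% of library 16 plus 60.0% of library 17, with a median squared standardized residual of 1.21 over 13012 genes. Library 12 (WT-TRAMP) matched 45.8% of library 10 plus 54.2% of library 11 (1.21), and library 15 (A537T-TRAMP) was nearest after these (2.17). For all other libraries this residual was 2.25 to 22.4. How this arose was not tested, and the 30-week values of the genes that stood out are given with and without libraries 12 and 18 (KO-TRAMP) or 12 and 15 (A537T-TRAMP).

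**Figure D1:**
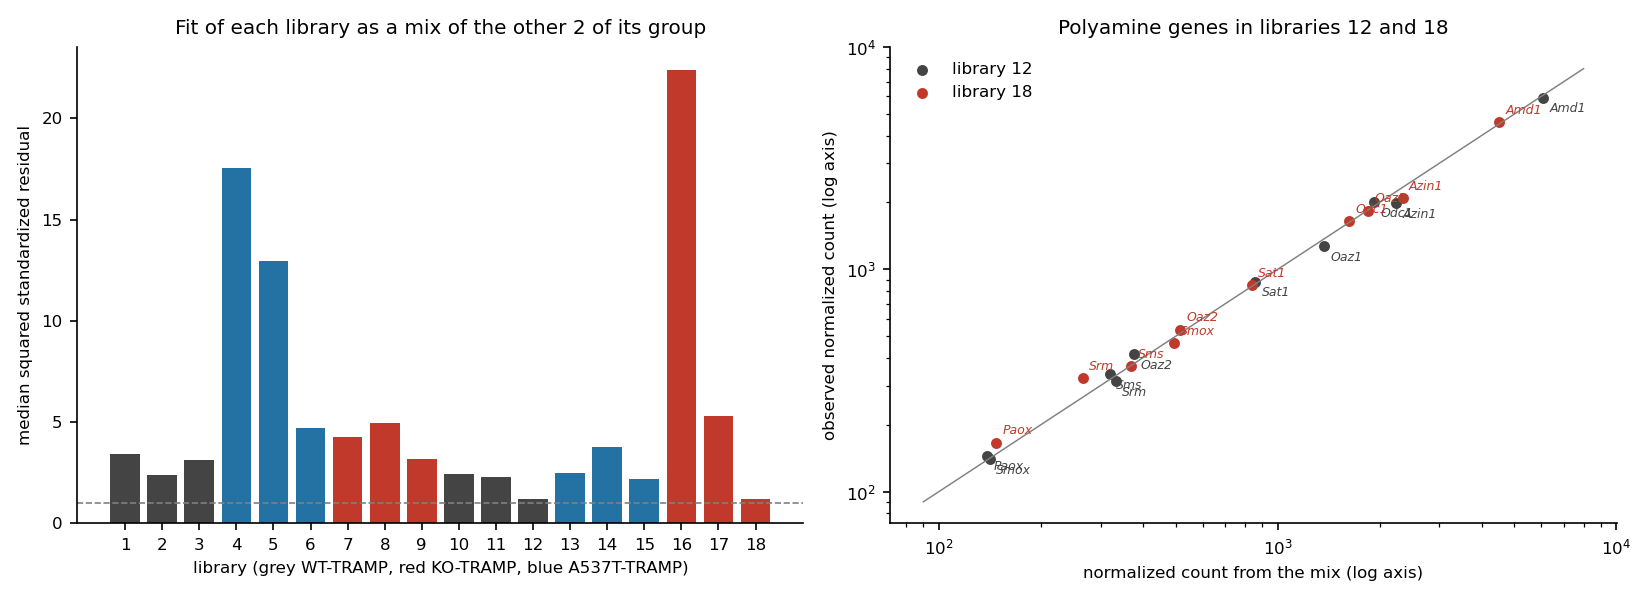
How closely each library matched a weighted sum of the other 2 libraries of its group. Libraries 12 and 18 lie lowest, at 1.21 to 1.23, and the others lie between 2.17 and 22.4.

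Expressed as RPKM (reads scaled by the length of the longest coding transcript and by the library total), the levels of the 10 genes spanned a wide order that was largely kept in all libraries. Amd1 was the most abundant (median 174, range 81.4 to 328 over the 18 libraries), followed by Oaz1 (median 117, 77.0 to 188), Odc1 (78.8, 59.0 to 107) and Sat1 (65.1, 44.6 to 74.7). Azin1 (38.3), Srm (22.5) and Oaz2 (16.8) were intermediate, and Sms (7.04), Smox (5.71) and Paox (3.04) were lowest. Thus transcripts of both decarboxylases and of antizyme 1 were abundant, and those of both oxidases were scarce. Neighbours in this order did not always keep it. Amd1 exceeded Oaz1 in 16 of 18 libraries, Odc1 exceeded Sat1 in 15, Azin1 exceeded Srm in 17, Srm exceeded Oaz2 in 16 and Sms exceeded Smox in 13. Sat1 had the narrowest range, 1.68-fold, and Smox the widest, 6.46-fold. Amd1 shares 81.9% of its 31-base words with the near-identical gene Amd2, so its reads could be split between them, and for none of the other 9 genes did a single other gene share 50% or more.

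The first question was whether either Elac2 allele changed these genes relative to WT-TRAMP. None of the 10 was called in any of the 4 comparisons by limma at an adjusted p of 0.05, and edgeR called none either. In the whole tables limma called 0.0129% of 15451 genes in KO-TRAMP at 10 weeks, 0.00648% of 15438 in A537T-TRAMP at 10 weeks, 0.213% of 16900 at 30 weeks in KO-TRAMP and 0.0% of 16261 at 30 weeks in A537T-TRAMP, so few genes of any kind passed with 3 libraries a group. At an unadjusted p under 0.05 the members counted 0, 0, 2 and 2, where the whole tables gave 6.64%, 7.89%, 13.5% and 7.21%. The 2 and 2 were Smox and Oaz1 in KO-TRAMP, and Smox and Paox in A537T-TRAMP, both at 30 weeks. The median log2 fold change of the 10 genes was -0.10 in KO-TRAMP at 10 weeks (all genes -0.0060), 0.03 in A537T-TRAMP at 10 weeks (-0.0078), 0.14 at 30 weeks in KO-TRAMP (0.010) and 0.11 at 30 weeks in A537T-TRAMP (0.00025). All fold changes below are on the log2(normalized count + 1) scale, and normalized counts compare libraries within a table only.

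**Figure D2:**
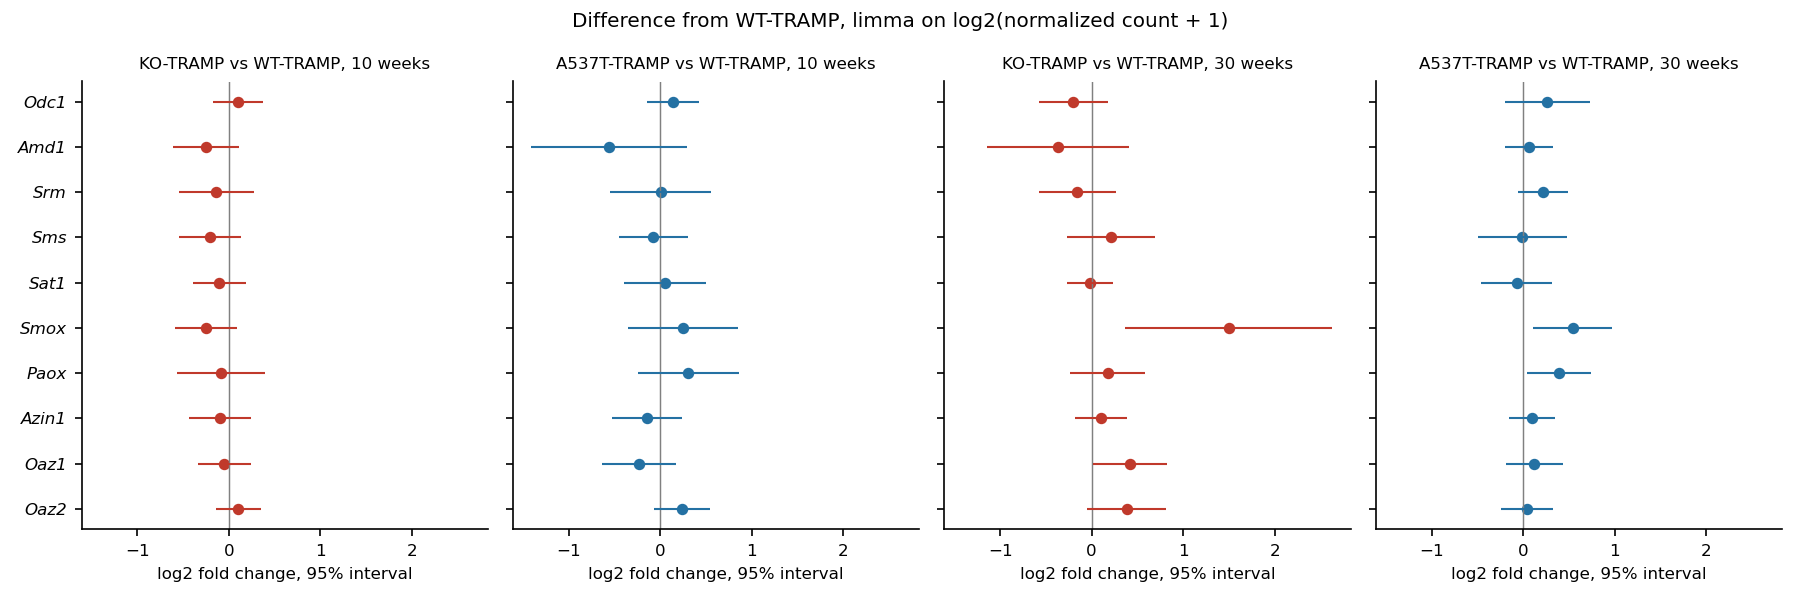
Log2 fold change of each gene against WT-TRAMP in the 4 comparisons, with bars for the 95% confidence interval (3 libraries a group). The interval of Smox in KO-TRAMP at 30 weeks, 0.37 to 2.63, lies farthest from 0, and most others span 0.

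None of the 4 synthesis genes passed the test at either age, and Odc1 and Amd1 groups overlapped in every comparison. Odc1, the first step of the pathway, had normalized counts of 2011, 1841 and 2116 in WT-TRAMP and 2427, 1879 and 2129.9 in KO-TRAMP at 10 weeks. Its log2 fold change was 0.10 ± 0.12 (SE), with a 95% interval from -0.17 to 0.37 (limma adjusted p = 0.899). Library 7 was the highest and library 2 the lowest. At 30 weeks Odc1 counts were 1842, 1986 and 2003 in WT-TRAMP and 2068, 1409 and 1650.0 in KO-TRAMP, a log2 fold change of -0.20 ± 0.16 (limma adjusted p = 0.530). The lowest Odc1 level of all, per length, was in library 17. In A537T-TRAMP, Odc1 differed from WT-TRAMP by 0.14 ± 0.12 at 10 weeks and by 0.27 ± 0.20 at 30 weeks on the log2 scale (limma adjusted p = 0.708 and 0.796). At 30 weeks libraries 13 and 15 (2543 and 2613) lay above all WT-TRAMP libraries (1725, 1845 and 1861) and library 14 (1550.2) below them. Seminal vesicle markers summed to 54493 and 26486 CPM in libraries 13 and 15 and to 3.13 CPM in library 14. In WT-TRAMP libraries 10, 11 and 12 they were 43537, 1.06 and 19006 CPM. Their part in the Odc1 values was not tested.

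Amd1, whose product commits S-adenosylmethionine to polyamines, varied most among the synthesis genes. At 10 weeks its normalized counts in WT-TRAMP were 12016, 8366 and 8104, and those in KO-TRAMP were 8405, 7549 and 7587 (log2 fold change -0.25 ± 0.16, limma adjusted p = 0.808). The KO-TRAMP libraries thus lay at the lower end of WT-TRAMP, and library 1 stood above the rest. In A537T-TRAMP at 10 weeks the counts were 9286, 3332 and 5820.1 against 10708, 7466 and 7191. This was the most negative fold change of any member in any comparison, -0.56 ± 0.36, but its interval ran from -1.41 to 0.29 (limma adjusted p = 0.623). Library 5, the lowest, also had the highest sum of the 8 seminal vesicle markers, 90508 CPM, where WT-TRAMP libraries of that age had 1.83 to 4.59 CPM, and the part of this tissue in the Amd1 value was not tested. At 30 weeks Amd1 counts were 5216, 6811 and 5933 in WT-TRAMP and 7201, 2964 and 4597 in KO-TRAMP (-0.37 ± 0.32, limma adjusted p = 0.571). In A537T-TRAMP they were 5909.5, 5531 and 5494, within the range of WT-TRAMP (4759, 6168 and 5374).

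Srm and Sms, which make spermidine and spermine, showed smaller differences. Srm counts in A537T-TRAMP at 30 weeks were 399.8, 330.3 and 358, all above the WT-TRAMP values of 309.8, 325 and 299.8. The difference was 0.22 ± 0.11 on the log2 scale (limma adjusted p = 0.733; 0.20 without libraries 12 and 15), and 13.4% of all genes in that table had groups that did not overlap. In KO-TRAMP at 30 weeks Srm counts were 334, 231 and 323 against 322, 341 and 315, so library 17 was again the lowest. Its fold change was -0.16 ± 0.17 on the log2 scale there, and at 10 weeks it was -0.13 ± 0.18 (KO-TRAMP) and 0.0031 ± 0.24 (A537T-TRAMP). Sms, on the X chromosome, ranged from 212 to 404 normalized counts over all tables. Its log2 fold changes were -0.21, -0.08, 0.21 and -0.0084 for KO-TRAMP and then A537T-TRAMP aged 10 weeks, and likewise aged 30 weeks, each smaller than 1.5 times its standard error.

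Of the breakdown genes, Smox stood apart at 30 weeks. Its normalized counts in WT-TRAMP were 169, 117 and 140.2 (mean 142 ± 26.0, SD), and in KO-TRAMP they were 194, 696 and 467 (452 ± 251) in libraries 16, 17 and 18. All KO-TRAMP libraries lay above all WT-TRAMP libraries, and 20.2% of all genes in this table had groups that did not overlap. Library 16 was above by little, and the spread of Smox within KO-TRAMP was wide. The log2 fold change was 1.50 ± 0.47 (95% interval 0.37 to 2.63), 2.82-fold, with a limma p of 0.0175 and an adjusted p of 0.332. On the recovered reads DESeq2 gave 1.66 and an adjusted p of 0.0197, and it called 4.76% of all genes in this comparison. Leaving out any other single library gave limma values of 1.10 to 1.63 (adjusted p = 0.534 to 0.749). Without library 16, whose Smox count was nearest to WT-TRAMP, the value was 2.01 (limma adjusted p = 0.0114), in a fit that called 18.1% of all genes and kept library 17 and its near-mixture 18 as the KO-TRAMP libraries. Without libraries 12 and 18, the near-mixtures, the value was 1.38 ± 0.69 with an interval from -0.49 to 3.25 (limma adjusted p = 0.986), and neither Smox nor any other gene was called.

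Libraries 17 and 18 also had the highest levels of neuroendocrine markers. The summed level of 7 neuroendocrine markers (Chga, Chgb, Syp, Insm1, Scg2, Scg3 and Ddc) was 1297 CPM in library 17 and 799.5 CPM in library 18, and 0.356 CPM in library 16, where 4 of the 7 were at 0. In WT-TRAMP at 30 weeks it was 139, 0.654 and 64.7 CPM in libraries 10, 11 and 12, and it was 2.26 to 8.90 CPM in A537T-TRAMP and 0.653 to 19.4 CPM in all libraries of 10 weeks. Smox was at 64.4 CPM in library 17 and 42.9 CPM in library 18, against 16.8 CPM in library 16 and 10.0 to 20.2 CPM in all other libraries. The higher Smox level was thus seen in the same libraries as the markers, whose part in it was not tested. In bulk tissue, more cells of a type and more RNA per cell cannot be told apart. Fibroblast markers also differed, with 3 of 6 called higher by limma in KO-TRAMP at 30 weeks (summed 1554 to 1944 CPM against 364 to 419), and 2 of 8 macrophage markers (349 to 390 CPM against 129.9 to 157), but these were high in library 16 too. Within KO-TRAMP at 30 weeks other marker lists were also higher in libraries 17 and 18 than in library 16. Summed proliferation genes were 3836 and 2863 CPM there, against 1514 CPM in library 16 and at most 2066 CPM elsewhere. Basal markers were 217 and 153 CPM against 35.5 CPM in library 16, but library 6 (A537T-TRAMP, 10 weeks) had 179 CPM. Smooth muscle markers were 3328 and 2283 CPM against 628 CPM in library 16, but library 13 (A537T-TRAMP, 30 weeks) had 2689 CPM. Adipocyte markers were 44.6 and 29.5 CPM against 4.18 CPM in library 16, but library 11 (WT-TRAMP, 30 weeks) had 90.5 CPM. Seminal vesicle markers went the other way, at 6.95 and 1061 CPM against 2656 CPM in library 16. The part of these lists in the Smox value was not tested either.

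**Figure D3:**
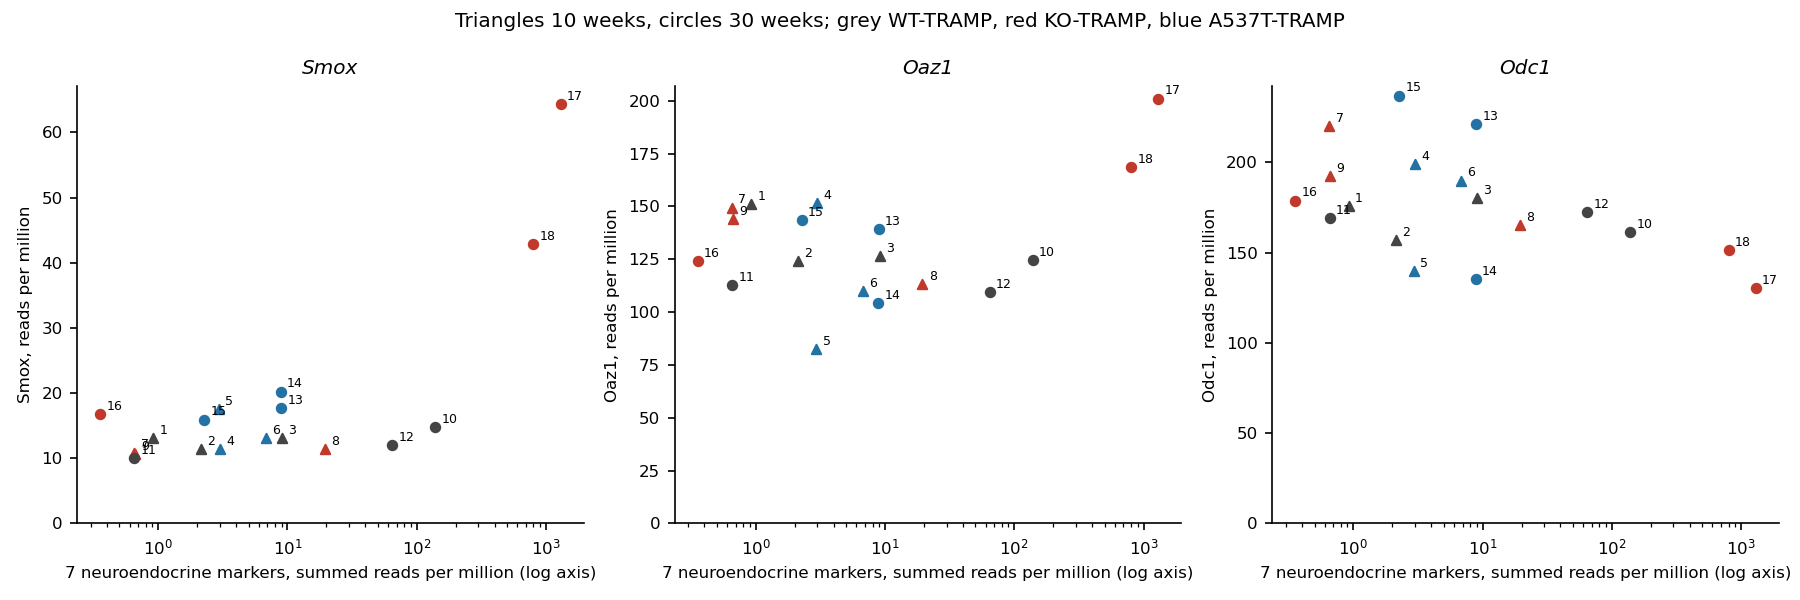
Smox, Oaz1 and Odc1 (CPM, 1 panel each) against the summed level of 7 neuroendocrine markers (CPM, log axis) in the 18 libraries, numbered. Libraries 17 and 18 lie apart from the rest on both axes for Smox and Oaz1, library 16 of the same group does not, and for Odc1 library 17 is the lowest.

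At 10 weeks the Smox values pointed the other way. KO-TRAMP counts were 119.6, 129 and 118 against 150.4, 134 and 153 in WT-TRAMP (122 ± 6.26 and 146 ± 10.5), with all 3 below WT-TRAMP. The difference was -0.25 ± 0.15 on the log2 scale (95% interval -0.59 to 0.09, limma adjusted p = 0.797), and groups did not overlap for 12.0% of all genes in this table. The change of the KO-TRAMP effect on Smox from 10 to 30 weeks was 1.75 ± 0.51 (0.64 to 2.86), with a limma p of 0.00535 and an adjusted p of 0.253. Limma called 0.0% of 15252 genes for this interaction and 13.5% were under 0.05 without adjustment. DESeq2 gave Smox 1.93 (adjusted p = 0.0188) and called 2.38% of all genes. Without libraries 12 and 18 the limma value was 1.63 (adjusted p = 0.770).

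In A537T-TRAMP at 30 weeks Smox counts were 204, 231 and 175 against 168, 116 and 138, so the groups were apart but close. Of all genes in that comparison 13.4% had groups that did not overlap, and 7.21% had an unadjusted p under 0.05. The log2 fold change of Smox was 0.54 ± 0.18 (0.11 to 0.98), with a limma p of 0.0212 and an adjusted p of 0.673. Without libraries 12 and 15 it was 0.64 (limma adjusted p = 0.9995). At 10 weeks library 5 (224) lay above the WT-TRAMP libraries (136, 121 and 137) and the other A537T-TRAMP libraries (118 and 142) did not (0.25 ± 0.26, limma adjusted p = 0.746), and without library 5 the value was -0.02. The change with age of the A537T-TRAMP effect on Smox was 0.30 ± 0.33 (limma adjusted p = 0.798), in a test that called 0.0% of 15242 genes and had 6.08% under 0.05 without adjustment. The KO-TRAMP and A537T-TRAMP comparisons of an age share their WT-TRAMP libraries, so the higher Smox value in both at 30 weeks is not 2 separate observations.

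The other breakdown genes did not show the Smox pattern. Sat1, the acetyltransferase and usually the inducible step of polyamine export, was level in KO-TRAMP at 30 weeks, with counts of 905, 824 and 848 against 922, 802 and 880.0. Its interval there, -0.27 to 0.24 on the log2 scale, excluded a fold change as large as the Smox estimate. Its other log2 fold changes were -0.10 in the younger KO-TRAMP mice, and 0.05 and -0.07 in A537T-TRAMP aged 10 and 30 weeks. The ratio of Smox to Sat1 reads was therefore 0.844 in library 17 and 0.551 in library 18, and 0.131 to 0.390 in the other 16 libraries. Paox, the oxidase of acetylated polyamines, had counts of 161, 147 and 182 in A537T-TRAMP at 30 weeks, all above WT-TRAMP (114, 131 and 128). Its log2 fold change was 0.39 ± 0.15, with a limma p of 0.0330 and an adjusted p of 0.684. Without libraries 12 and 15 it was 0.33 ± 0.23 (interval -0.25 to 0.91). Of all genes in that comparison 13.4% had groups that did not overlap, and 7.21% had an unadjusted p under 0.05. In KO-TRAMP at 30 weeks Paox was 175, 136 and 166 against 128, 148 and 145 (0.18 ± 0.17), and at 10 weeks its groups overlapped in both lines (-0.09 ± 0.21 and 0.31 ± 0.24).

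**Figure D4:**
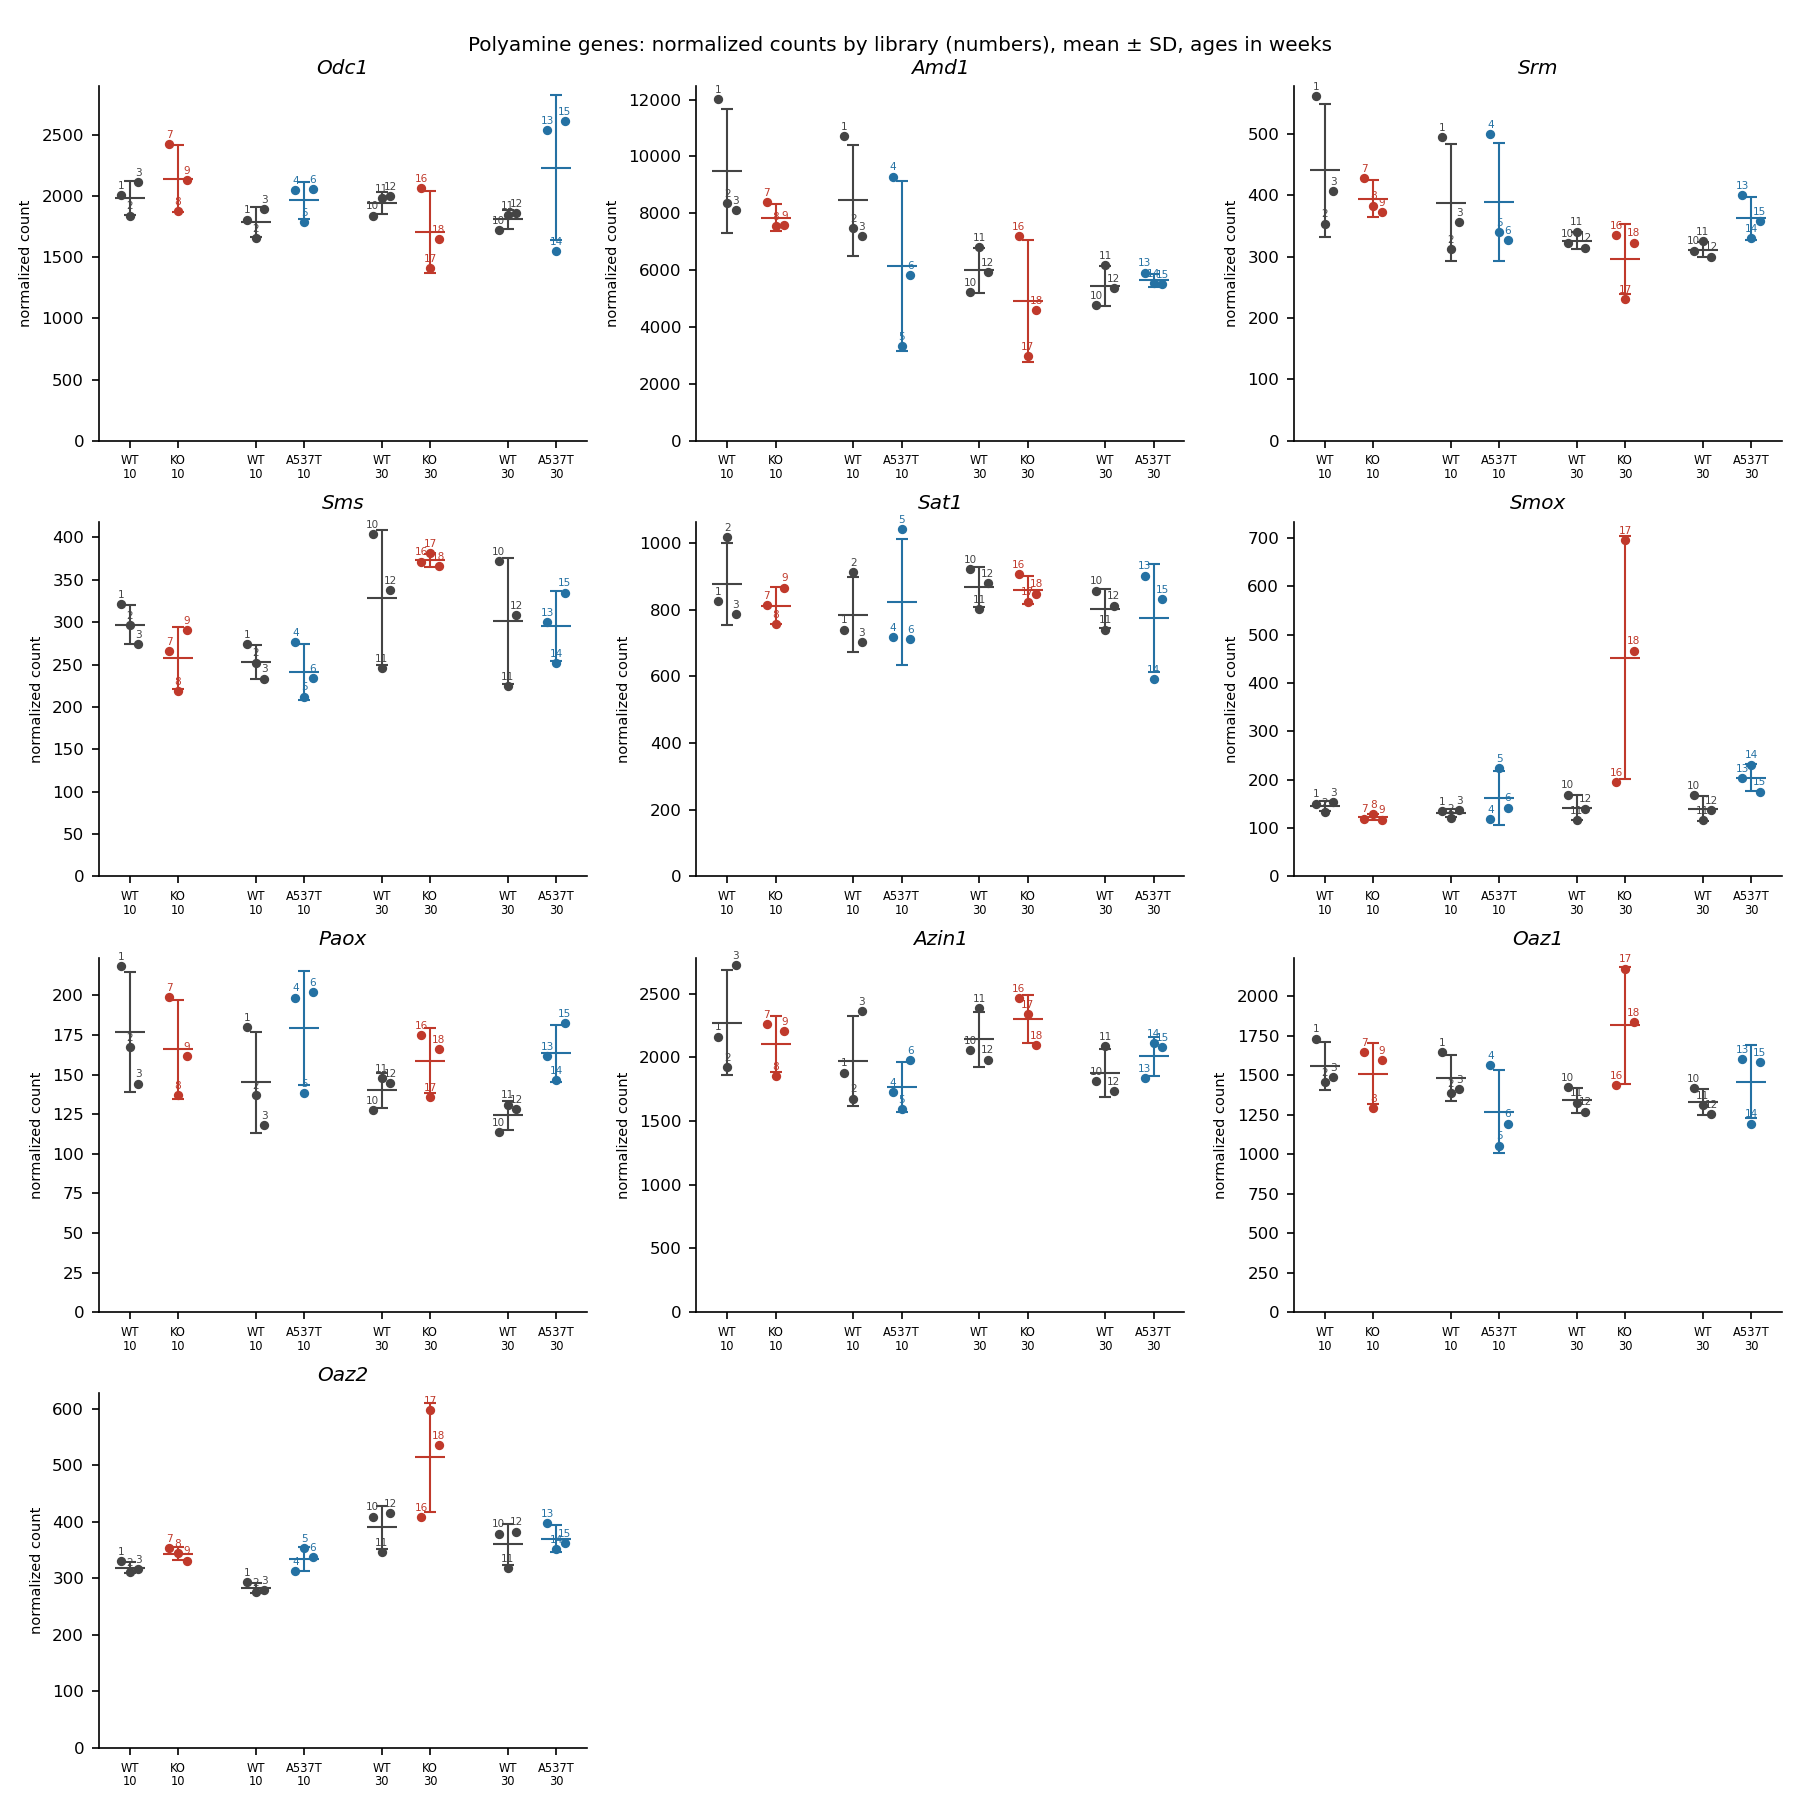
Normalized counts of the 10 genes in every library, by table, with the group mean and SD (3 libraries a group) and the library number at each point. Smox in KO-TRAMP at 30 weeks reaches 696 and 467 in libraries 17 and 18, and in every other library of the tables it is at most 231.

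Among the regulators of ODC, the antizyme transcripts had their highest levels in the same libraries as Smox. Oaz1 counts in KO-TRAMP at 30 weeks were 1435, 2173 and 1837 in libraries 16, 17 and 18, against 1423, 1325 and 1269 in WT-TRAMP (1815 ± 370 and 1339 ± 78.3). The groups did not overlap, which held for 20.2% of all genes in that table, and library 16 was above the highest WT-TRAMP library by little. The log2 fold change was 0.42 ± 0.17 (0.016 to 0.82), with a limma p of 0.0439 and an adjusted p of 0.365. Oaz2 counts were 408, 598 and 536 against 409.6, 346 and 416, so libraries 17 and 18 were high and library 16 was within WT-TRAMP (0.38 ± 0.18, limma adjusted p = 0.390). Of the limma fits that left out 1 library, both were called only in that without library 16 (Oaz1 0.58, limma adjusted p = 0.0307, and Oaz2 0.54, adjusted p = 0.0480), which called 18.1% of all genes, and leaving out any other single library gave adjusted p = 0.534 to 0.749. Without libraries 12 and 18 their log2 fold changes were 0.36 and 0.39, and neither was called.

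The balance of Odc1 to antizyme transcripts also differed in libraries 17 and 18. Odc1 reads exceeded Oaz1 reads 1.16 to 1.73 times in 16 libraries, but the ratio was 0.648 in library 17 and 0.898 in library 18. These ratios of reads are not corrected for length and compare libraries only, with WT-TRAMP reads taken from the KO-TRAMP tables. Azin1, which frees ODC from antizyme, was 2465, 2341 and 2094 in KO-TRAMP at 30 weeks against 2054, 2386 and 1981, a difference of 0.11 ± 0.12 on the log2 scale (limma adjusted p = 0.656). In the other 3 comparisons its log2 fold changes were -0.10, -0.15 and 0.10. The change with age of the KO-TRAMP effect was 0.47 ± 0.22 for Oaz1 (limma adjusted p = 0.376) and -0.31 ± 0.20 for Odc1 (adjusted p = 0.498).

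At 10 weeks Oaz2 was above WT-TRAMP in every library of both lines, by little. KO-TRAMP counts were 354, 345 and 332 against 331, 311 and 316 (0.11 ± 0.11 on the log2 scale), and A537T-TRAMP counts were 313, 354 and 338 against 294, 276 and 279.8 (0.24 ± 0.13, limma adjusted p = 0.604). Groups did not overlap for 12.0% of all genes in the KO-TRAMP table of that age and 13.4% in the A537T-TRAMP table. Both comparisons used the same WT-TRAMP libraries. Smooth muscle markers separated these groups too, at 383 to 629 CPM in WT-TRAMP, 714 to 1091 CPM in KO-TRAMP and 959 to 2127 CPM in A537T-TRAMP, with 5 and 6 of the 6 under an unadjusted p of 0.05, and their part in the Oaz2 values was not tested. Oaz1 did not share this: its counts were 1563, 1053 and 1192 in A537T-TRAMP against 1647, 1385 and 1409 (-0.24 ± 0.17). In KO-TRAMP at 10 weeks and A537T-TRAMP at 30 weeks the log2 fold changes of Oaz1 were -0.05 and 0.12, and that of Oaz2 in A537T-TRAMP at 30 weeks was 0.04.

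Across the 18 libraries, with the WT-TRAMP libraries entering in both of their tables (24 columns, each table's mean removed), 32 of the 45 pairs of members had a Pearson r above 0, with a median of 0.12. The highest r was between Smox and Oaz2 (0.83) and the lowest between Amd1 and Oaz2 (-0.67). Amd1 and Srm, both of synthesis, had an r of 0.72, and Amd1 and Smox one of -0.63. These values rest on shared libraries, 17 and 18 among the extremes, and are descriptions. Of 9580 genes with a mean of at least 100, those most like Odc1 were Cbs (r = 0.83), Nucb2 (0.82) and Aldh1a1 (0.81). Those most like Sat1 were Rfesd (0.86), Zfp942 (0.84) and Gm16136 (0.84).

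The genes around the pathway were taken as lists, of which none had a member called by limma in any comparison. Ornithine supply and use had 6 of 8 genes that passed the filter, of which 1, 1, 2 and 1 had an unadjusted p under 0.05 (KO-TRAMP then A537T-TRAMP, first aged 10 weeks, then 30 weeks). Arg1, the arginase that makes ornithine, had counts of 80.3, 119 and 99.2 in KO-TRAMP at 30 weeks against 41.4, 44.1 and 53.6, a log2 fold change of 1.07 ± 0.24 (limma adjusted p = 0.244). Arg1 in the A537T-TRAMP mice of that age was at 33.6, 23.8 and 19.9 against 39.0, 41.3 and 49.1 (-0.74 ± 0.29, limma adjusted p = 0.684). All KO-TRAMP libraries were above and all A537T-TRAMP libraries below WT-TRAMP. Groups did not overlap for 20.2% of all genes in the KO-TRAMP table and 13.4% in the A537T-TRAMP table. For Arg1 in KO-TRAMP at 30 weeks DESeq2 gave an adjusted p of 0.0206, and it called 4.76% of all genes there. Without libraries 12 and 18 the KO-TRAMP value was 1.17, and without 12 and 15 the A537T-TRAMP value was -0.49. At 10 weeks Arg1 was 110.2, 68.7 and 25.3 in WT-TRAMP and 25.2, 22.5 and 27.6 in KO-TRAMP (-1.18 ± 0.49, limma adjusted p = 0.740). In A537T-TRAMP of that age it was 21.2, 4.42 and 16.1, all below WT-TRAMP and 21.6% of its mean (-2.13 ± 0.71, limma adjusted p = 0.600). These were 26, 4 and 14 reads in libraries 4, 5 and 6, and groups did not overlap for 13.4% of all genes there. Library 5 had 90508 CPM of seminal vesicle markers, whose part in its Arg1 value was not tested. The change with age of the KO-TRAMP effect on Arg1 was 2.25 ± 0.60 (limma adjusted p = 0.239, DESeq2 adjusted p = 0.00817). For this interaction DESeq2 called 2.38% of all genes.

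The supply of S-adenosylmethionine and salvage of methylthioadenosine had 8 of 8 genes pass the filter, and 1, 0, 0 and 0 had an unadjusted p under 0.05 in the same order. That gene was Mat2a, the S-adenosylmethionine synthetase of most tissues, at 6292, 5137 and 5784 counts in KO-TRAMP at 10 weeks against 15515, 12230.5 and 7762. It was thus at 48.5% of WT-TRAMP with no overlap (-0.99 ± 0.23, limma adjusted p = 0.659, DESeq2 adjusted p = 0.00124). Groups did not overlap for 12.0% of all genes in that comparison, where DESeq2 called 81 of 15451 genes and edgeR called 0. In KO-TRAMP at 30 weeks the Mat2a groups overlapped (-0.09 ± 0.19). Of the polyamine and amino acid transporters, 8 of 12 passed at 10 weeks and 10 of 12 at 30 weeks, and 1, 1, 4 and 0 were under 0.05. Atp13a4, of the family of polyamine-transporting ATPases, was at 18.7, 127 and 66.5 counts in A537T-TRAMP at 10 weeks against 4.02, 1.15 and 10.1 (3.49 ± 0.86, limma adjusted p = 0.600, DESeq2 adjusted p = 0.0055). In that comparison DESeq2 called 148 of 15438 genes, and edgeR called 0. The libraries with the most Atp13a4, 5 and 6, had 90508 and 12468 CPM of seminal vesicle markers, and library 4 had 487 CPM.

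Spermidine is also the donor for hypusine, the modified residue of eIF5A that Dhps and Dohh make. Of the 4 genes of that list 0, 0, 1 and 1 were under an unadjusted p of 0.05, in both cases Dhps. In KO-TRAMP at 30 weeks Dhps counts were 119, 459.9 and 358 against 91.8, 140.1 and 106, the same high libraries as for Smox, with 1.28 ± 0.51 on the log2 scale (limma adjusted p = 0.368; 1.04 without libraries 12 and 18). In A537T-TRAMP at 30 weeks they were 137, 129 and 159 against 76.9, 117 and 88.5 (0.60 ± 0.20, limma adjusted p = 0.666; 0.48 without libraries 12 and 15).

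Sbp encodes a secreted spermine-binding protein of the ventral prostate, and Tgm4 the prostate transglutaminase that crosslinks seminal proteins. Of these 2 genes 1, 0, 2 and 0 were under an unadjusted p of 0.05. Sbp counts at 10 weeks were 123562, 111923 and 117956 in KO-TRAMP against 258144, 302849.8 and 224677 in WT-TRAMP, 45.0% of the WT-TRAMP mean. The groups were far apart (-1.14 ± 0.17 on the log2 scale), yet limma's adjusted p was 0.276, while that of DESeq2 was 1.03e-14. In that comparison DESeq2 called 81 of 15451 genes, edgeR called 0, and 12.0% of all genes had groups that did not overlap. At 30 weeks Sbp was 13307, 5619.6 and 8381 against 15918, 16426 and 16655 (-0.93 ± 0.30, limma adjusted p = 0.338; -0.90 without libraries 12 and 18). In A537T-TRAMP at 10 weeks library 5 had 5421 Sbp counts and libraries 4 and 6 had 297885 and 144014. In WT-TRAMP Sbp was 19126 to 25833 CPM at 10 weeks and 1395 to 1435 CPM at 30 weeks. Tgm4 was named after its values were seen: in KO-TRAMP at 30 weeks it was 95.7, 26.2 and 41.8 against 1508, 632 and 1105, 5.04% of WT-TRAMP (-4.40 ± 0.53, limma adjusted p = 0.0547; -4.25 without libraries 12 and 18).

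**Figure D5:**
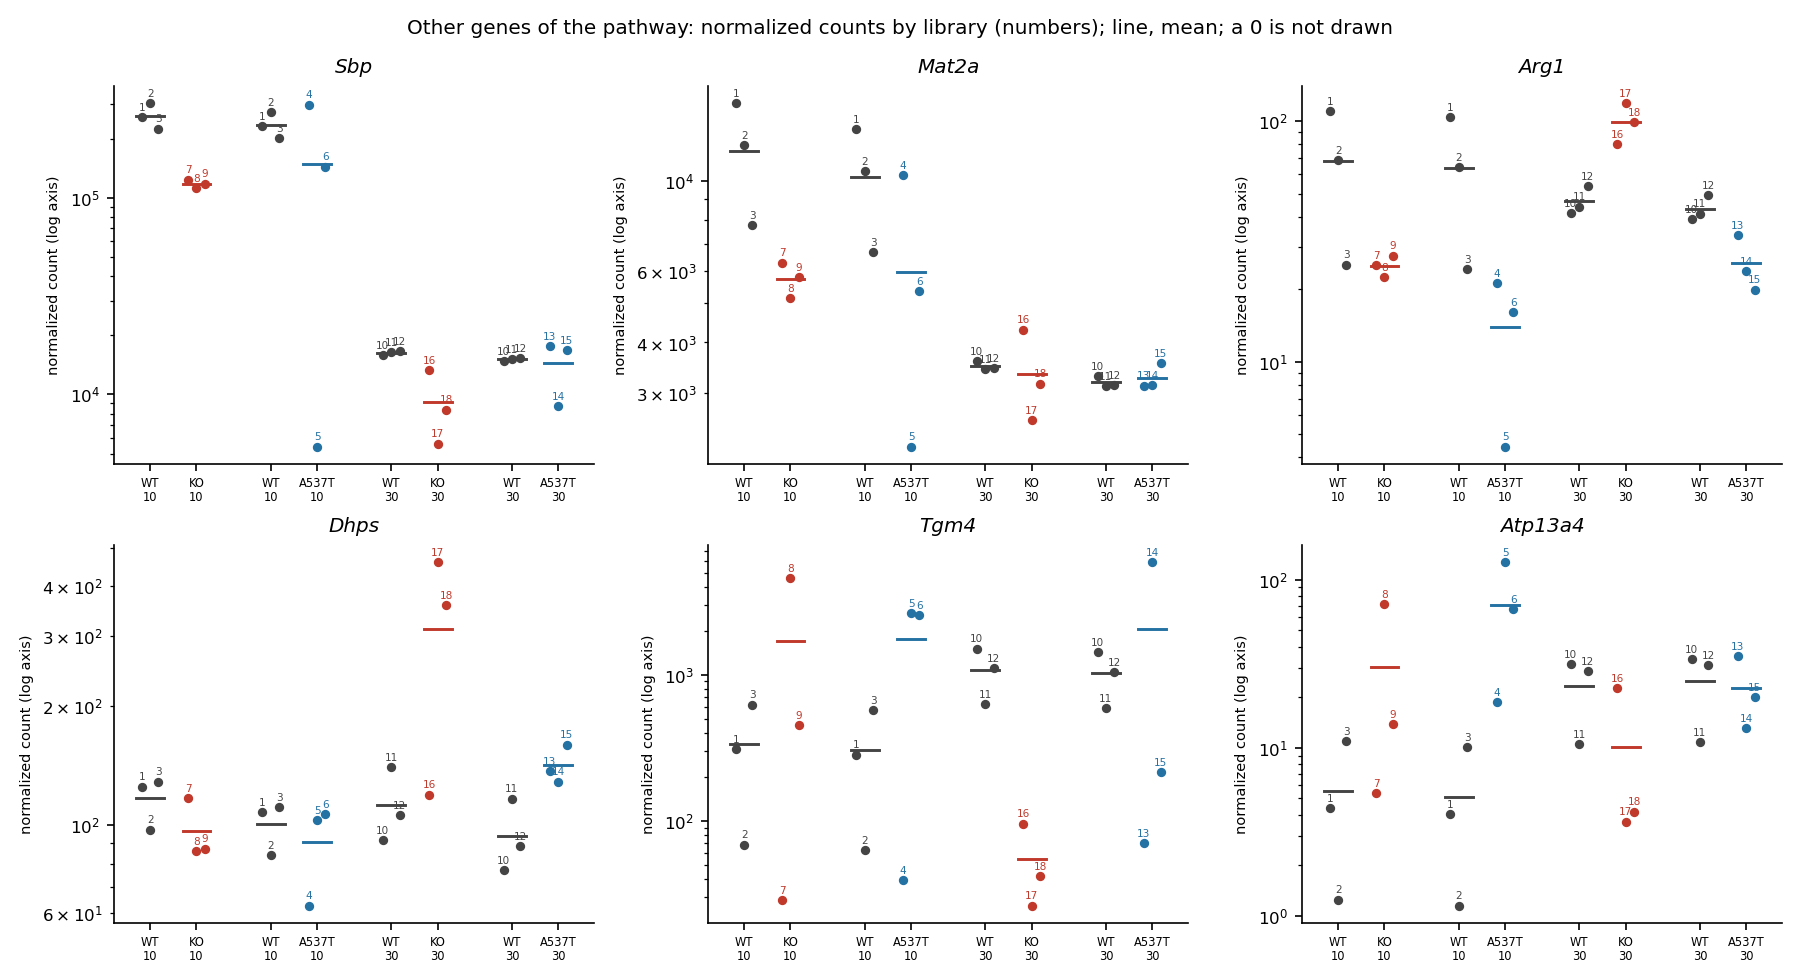
Normalized counts of genes around the polyamine pathway in every library, by table, on log axes, with a line for each group mean. Sbp lies below WT-TRAMP in all KO-TRAMP libraries at 10 weeks, and Dhps is highest in libraries 17 and 18.

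Antizyme and other paralogs of the members (Amd2, Oaz3, Azin2 and Sat2) had 0 genes under an unadjusted p of 0.05 in each comparison. The smallest p in that list was for Azin2, the antizyme inhibitor of the brain and testis, in KO-TRAMP at 30 weeks (36.0, 50.3 and 43.9 counts against 21.3, 28.8 and 38.8, limma adjusted p = 0.442). MYC, its relatives and their partners had 0, 0, 0 and 2 of 6 or 7 genes under 0.05. Mxd4, a MYC antagonist, was 1836, 1819.7 and 1697 in A537T-TRAMP at 30 weeks against 1551, 1593 and 1468 (0.21 ± 0.08, limma adjusted p = 0.684). Of 14 proliferation genes, 0, 1, 0 and 0 were under 0.05, which was Mcm6, of the replicative helicase, in A537T-TRAMP at 10 weeks (2603, 1369 and 1909 against 3086, 2997 and 2436, limma adjusted p = 0.600). The median log2 fold change of the proliferation genes was 0.44 in KO-TRAMP at 30 weeks, where that of the 4 synthesis genes was -0.18.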

How the data were processed

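The authors trimmed reads with Trim Galore 0.4.1 and cutadapt 1.18, aligned them with STAR 2.7.3a to GRCm38.p6 with nuclear copies of mitochondrial sequence masked, estimated counts per gene with Salmon (GENCODE vM24) and divided them by DESeq2 1.26 size factors. The 4 deposited tables hold these normalized counts (a signal of reads divided by 1 size factor per library), 6 libraries each. The authors' 4 tables of fold changes and s-values were not used. The 3 columns shared by both tables of an age were taken as WT-TRAMP. Whole reads were recovered for 100.0% of values (tolerance 0.01), 9380174 to 14830104 a library. The counts of a WT-TRAMP library differed between its 2 tables (30.9 to 37.6% of genes identical), so tests were made within tables.

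Genes with a mean of at least 10 were tested with limma 3.58.1 (R 4.3.3, lmFit and eBayes with trend, two-sided) on log2(normalized count + 1), Benjamini-Hochberg adjusted over all genes, threshold 0.05. The interactions of line and age used 12 libraries with an intercept per table. edgeR 4.0.16 and DESeq2 1.42.0 on recovered reads, another pseudocount, no filter, array weights, TMM rescaling, Amd1 summed with Amd2 and leaving out libraries were alternatives. Scripts were tested on simulated data. Near-mixtures were checked by fitting each library as a non-negative sum of the others of its group over genes with at least 50 reads on average. Promoter windows are from RefSeq (GRCm38.p6), coordinates from GENCODE vM21. The members and lists were chosen with earlier results of these data known. From each list without members or markers, genes past the threshold were named, or else the gene with the smallest p, and for Odc1 and Sat1 the 3 genes most alike. Nothing in the labels ties a library to a mouse, so p-values measure the spread between these libraries. 1 gene of the neuroendocrine marker list is not reported here and was left out of its sum.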

Additional observations from a re-analysis of the deposited data

Results flagged for a closer look

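Smox was flagged because its KO-TRAMP libraries lay below all WT-TRAMP libraries at 10 weeks and above all of them at 30 weeks. The change of the effect with age was 1.75 on the log2 scale, and the test of that difference did not pass after adjustment (limma adjusted p = 0.253). Arg1 was flagged because at 30 weeks its KO-TRAMP libraries lay above WT-TRAMP (1.07 on the log2 scale) and its A537T-TRAMP libraries below the same WT-TRAMP libraries (-0.74). The difference between the lines was not tested.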

How the results depend on the processing

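The authors describe the mice as matched by age and litter. No paired analysis was possible, because neither the sample labels nor the column headers name a litter, and the headers carry no replicate number. Over 43 fold changes (the members in 4 comparisons and 3 interactions), 505 of 561 alternatives kept direction and side of the threshold, 22 passed the threshold newly, 0 lost it and 34 turned direction, in 16 fold changes of at most 0.245 in size. Of 94 alternative counts of members called, 86 kept the count of 0. DESeq2 called 1 (Smox) in KO-TRAMP at 30 weeks and 1 for its interaction with age. At 30 weeks array weights called 6 (KO-TRAMP) and 6 (A537T-TRAMP), 3 for the KO-TRAMP and 1 for the A537T-TRAMP interaction. In the KO-TRAMP table at 30 weeks these weights were 170 for library 18 and 2.15 for library 12, and 10748 of 16900 genes were called. In all, the weights called 3388 of 16261 genes in A537T-TRAMP at 30 weeks, and 4668 of 15252 and 1573 of 15242 for the interactions. The estimation of weights stopped before it converged in some fits. Leaving out 1 library gave 0 to 3 calls in KO-TRAMP at 30 weeks and 0 to 2 for its interaction, the highest without library 16, when 3064 genes in all were called at 30 weeks. With array weights the log2 fold change turned to 0.0014 for Azin1 and 0.025 for Oaz1 in KO-TRAMP at 10 weeks, -0.059 for Srm, -0.12 for Sat1 and 0.0095 for Azin1 in A537T-TRAMP at 10 weeks, 0.015 for Srm in KO-TRAMP at 30 weeks, and 0.091 for Sms, 0.023 for Sat1 and -0.045 for Oaz2 in A537T-TRAMP at 30 weeks. Without libraries 12 and 18, an alternative chosen after seeing the data as was that without 12 and 15, Sat1 in KO-TRAMP at 30 weeks turned to 0.0064. Leaving out 1 library, values ranged in KO-TRAMP at 10 weeks from -0.28 to 0.054 (Srm), -0.18 to 0.0068 (Sat1), -0.22 to 0.076 (Paox), -0.21 to 0.041 (Azin1) and -0.12 to 0.060 (Oaz1). In A537T-TRAMP at 10 weeks they ranged from -0.19 to 0.19 (Srm), -0.18 to 0.010 (Sms), -0.13 to 0.17 (Sat1) and -0.017 to 0.44 (Smox). In KO-TRAMP at 30 weeks they ranged from -0.25 to 0.012 (Srm) and -0.069 to 0.031 (Sat1). In A537T-TRAMP at 30 weeks they ranged from -0.029 to 0.16 (Amd1), -0.21 to 0.16 (Sms), -0.19 to 0.11 (Sat1) and -0.042 to 0.091 (Oaz2). The cause of these changes was not tested.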
